A study of Mus musculus with 2 samples.

Results

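The collagen and laminin genes of the mouse embryonic pancreas were examined in single cells of 2 wild-type libraries at embryonic stage E14.5. They were all gene symbols in both count tables of the form Col-number-a-number or Lam followed by a, b or c and a number. This gave 53 genes, 42 collagen genes and 11 laminin genes, among the 25507 symbols. The labels call the cells pancreatic islet cells. Per the labels' protocols, cells were enriched by flow sorting for low and high signal of Ngn3eGFP, a fluorescent reporter of the endocrine progenitor gene Neurog3, and captured in droplets on the inDrop platform. inDrop gives each RNA molecule a unique molecular identifier, so that a UMI count is a count of captured molecules. The sort sets which cell types were present and in what shares, so shares of cells are not shares of the organ. No treatment, other genotype or other age was compared, and the labels do not say whether the libraries come from separate animals.

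Collagens are triple-helical proteins of the extracellular matrix. Fibrillar collagens such as types I, III and V build the fibres of connective tissue, whereas type IV collagen forms the network of the basement membrane, the sheet of matrix beneath epithelia and around blood vessels. Laminins are trimers of an alpha, a beta and a gamma chain that polymerise in the basement membrane and bind integrins and dystroglycan on the cell surface. In the developing pancreas the duct-like trunk epithelium gives rise to endocrine progenitors, which leave the epithelium as they become hormone cells, while mesenchyme, blood vessels and macrophages surround it.

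After filtering, 515 cells of library 1 and 1070 cells of library 2 were kept, with medians of 3225 and 2848 UMIs per cell. Cells were grouped by raw UMIs of marker genes that are not collagen or laminin genes. The gates were taken in a fixed order, and a cell joined the first group it passed: at least 2 UMIs of Csf1r (macrophages), 2 of Pecam1 (endothelium), 5 of Cpa1 (acinar and tip cells), 20 of Ins1 and Ins2 together (beta cells), 10 of Gcg (alpha cells), 5 of Chgb (endocrine cells), 3 of Neurog3 (endocrine progenitors) or 3 of Spp1 (trunk epithelium). The groups are called by their gate gene. In library 1 and library 2 they held 106 and 211 Spp1 cells, 115 and 183 Neurog3 cells, 89 and 136 Chgb cells, 40 and 99 Ins cells, 27 and 43 Gcg cells, 8 and 86 Cpa1 cells, 7 and 38 Csf1r cells, and 4 and 15 Pecam1 cells. Among the cells that passed no gate, 4 and 19 had at least 3 UMIs summed over 10 mesenchyme markers, such as Pdgfra, Dcn and Postn, and are called mesenchyme-list cells.

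Marker lists followed the gates for the main epithelial groups, while 2 small groups were mixed. Summed over 7 trunk markers, the Spp1 cells had 5698 and 8120 CPM (a gene's UMIs per 1000000 UMIs of the group). Neurog3 cells had 2375 and 3098, and Chgb cells 843 and 928. The list includes the gate gene Spp1, which alone gave 2767 and 4506 CPM in Spp1 cells, so the gate fixed part of this order. Sox9, which is not a gate gene, had 786 and 1062 CPM in Spp1 cells, 280 and 359 in Neurog3 cells and 88.4 and 138 in Chgb cells. The 4 Pecam1 cells of library 1 went against their gate: 7 of 9 endothelial markers, Cdh5 and Plvap among them, had 0 UMIs there. Cpa1 stood at 5137 CPM (128 UMIs), while only 1 of the 4 cells passed the Cpa1 gate of 5 UMIs. The 15 Pecam1 cells of library 2 had all 9 endothelial markers, the gate gene Pecam1 among them, with Cdh5 at 1591 CPM. They also had Chgb at 1132 CPM, 68 of its 69 UMIs in a single cell. Of the 15 cells, 4 passed another gate too. Endothelial values below therefore rest on library 2 alone and are given with and without those 4 cells. The mesenchyme-list cells were mixed as well. In library 1 their endocrine markers summed to 1259 CPM, beside 1209 for the mesenchyme markers, and in library 2 their acinar markers summed to 1225 CPM, beside 2463. At least 10 UMIs of the endocrine or of the acinar list were found in 2 of the 4 cells of library 1 and 3 of the 19 of library 2, a limit chosen after seeing the data. The libraries shared 3 cell barcodes.

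The 53 genes gave 11989 UMIs in all, which were 0.217% of the UMIs in library 1 and 0.239% in library 2. All 53 had at least 5 UMIs, 43 had at least 50, and 10 had fewer. The most counted were Lamc1 with 1146 UMIs, Lamb1 with 820, Col9a2 with 786, Col18a1 with 735 and Col27a1 with 655. The least counted were Col20a1 with 5 UMIs and Col6a5 with 6. Levels below are CPM per library. Their intervals and floors cover counting error only.

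The main fibrillar genes were highest in mesenchyme-list cells, whereas basement membrane genes were counted in every group. Summed over the 20 basement membrane members (6 type IV chains, Col7a1, Col15a1, Col18a1 and 11 laminin chains), Spp1 cells had 1865 and 2198 CPM in libraries 1 and 2. Neurog3 cells had 1263 and 1291, Chgb cells 697 and 705, Ins cells 675 and 643, Gcg cells 866 and 640, and Cpa1 cells 495 and 546. Csf1r cells were the lowest of the groups, at 423 and 291. In library 1 they were 7 cells with 18927 UMIs, where 3 UMIs stand for 159 CPM. Their order against the other low groups is therefore uncertain in library 1. The Pecam1 cells of library 2 had 4232. Mesenchyme-list cells had 605 and 1498, so in library 2 they lay above Neurog3 cells. Spp1 cells alone held 37.4% and 35.0% of all basement membrane UMIs of their library. They were 20.6% and 19.7% of its cells, and over all genes held 406996 of 1829453 and 605571 of 3352226 UMIs. Col1a1, Col1a2 and Col3a1, which encode the chains of collagens I and III, summed to only 51.0 to 158 CPM in the gated epithelial and endocrine groups, and the Csf1r cells, a type that should lack these collagens, gave 52.8 and 83.1. In mesenchyme-list cells the same 3 genes summed to 6901 and 16091. Without the cells that had endocrine or acinar markers, they summed to 18524 and 20168 there, and the basement membrane members to 1226 and 1715.

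**Figure D1:**
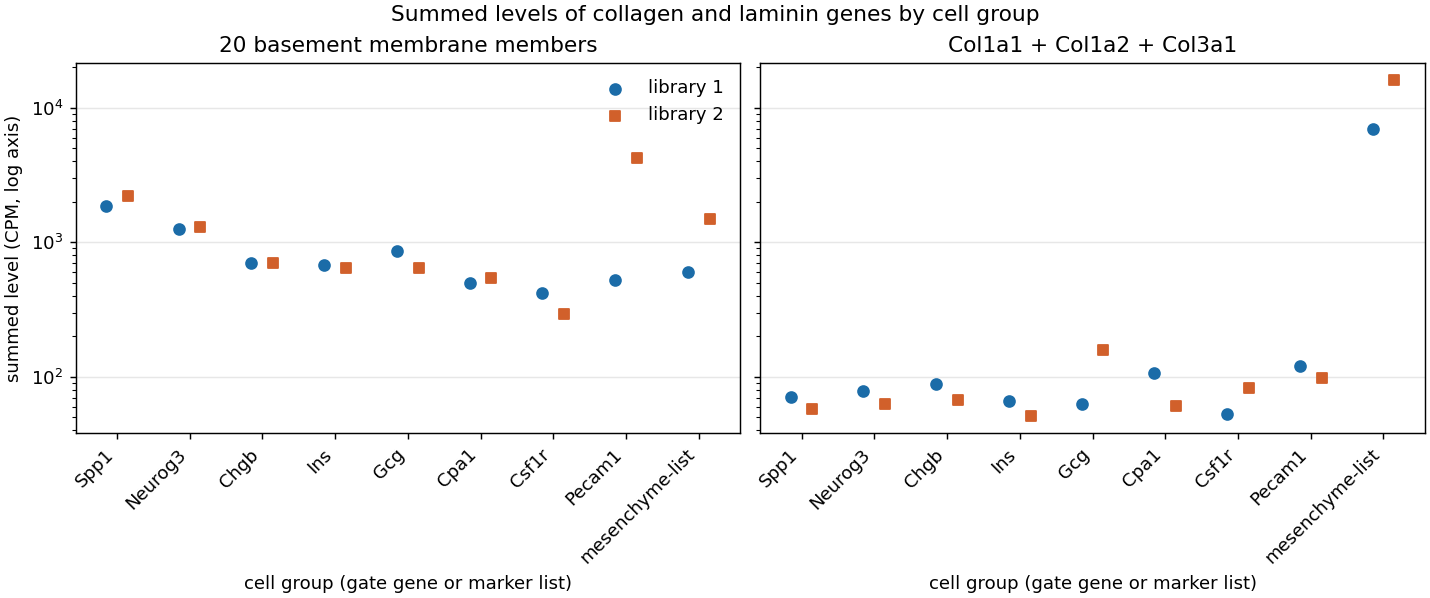
Summed level, in CPM on a log axis, of the 20 basement membrane members (left) and of Col1a1, Col1a2 and Col3a1 (right) in each cell group, with 1 point per library. Basement membrane levels fell from 1865 and 2198 in Spp1 cells to 697 and 705 in Chgb cells, while the 3 fibrillar genes reached 6901 and 16091 in mesenchyme-list cells and stayed at or below 158 in every gated group.

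The promoter stretches of 6 members are shown because the first 5 differed between epithelial groups in the tests below and Col3a1 had the largest fold change of all members in mesenchyme-list cells. They are the exon-free bases within 250 upstream of a RefSeq start site in GRCm38.p6, written 5′ to 3′ on the strand of the gene. Capitals mark matches, on either strand, to ACAAT (the core bound by SOX factors, among them the trunk regulator SOX9) or to GGGCGG (the GC box bound by SP1). The positions are chr10:77166549-77166780 for Col18a1 (minus strand), chr12:31265043-31265233 for Lamb1 (plus), chr2:180225860-180226109 for Lama5 (minus), chr4:63215162-63215411 for Col27a1 (plus), chr17:34038888-34039137 for Col11a2 (plus) and chr1:45311288-45311537 for Col3a1 (plus).
Col18a1: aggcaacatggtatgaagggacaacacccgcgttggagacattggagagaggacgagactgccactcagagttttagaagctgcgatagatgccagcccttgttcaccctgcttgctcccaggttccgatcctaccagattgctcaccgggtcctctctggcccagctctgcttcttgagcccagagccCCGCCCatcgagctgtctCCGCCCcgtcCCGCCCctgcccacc
Lamb1: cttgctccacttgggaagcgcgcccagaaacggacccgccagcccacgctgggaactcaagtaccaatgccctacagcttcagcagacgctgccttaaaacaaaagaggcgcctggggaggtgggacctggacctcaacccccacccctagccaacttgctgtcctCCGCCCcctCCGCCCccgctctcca
Lama5: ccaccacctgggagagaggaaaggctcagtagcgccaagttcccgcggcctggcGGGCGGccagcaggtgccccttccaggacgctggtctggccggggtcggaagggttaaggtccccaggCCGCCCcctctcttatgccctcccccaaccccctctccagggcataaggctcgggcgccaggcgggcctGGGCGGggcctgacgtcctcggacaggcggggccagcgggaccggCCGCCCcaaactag
Col27a1: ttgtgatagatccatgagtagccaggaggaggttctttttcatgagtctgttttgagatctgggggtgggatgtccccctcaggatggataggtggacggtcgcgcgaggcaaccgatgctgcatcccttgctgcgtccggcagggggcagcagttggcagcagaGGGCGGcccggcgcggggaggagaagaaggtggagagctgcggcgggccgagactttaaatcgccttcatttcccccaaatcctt
Col11a2: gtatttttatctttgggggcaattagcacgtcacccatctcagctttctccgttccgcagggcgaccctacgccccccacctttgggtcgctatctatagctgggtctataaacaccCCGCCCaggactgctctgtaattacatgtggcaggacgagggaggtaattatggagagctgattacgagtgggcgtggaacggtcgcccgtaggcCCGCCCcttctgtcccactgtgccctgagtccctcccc
Col3a1: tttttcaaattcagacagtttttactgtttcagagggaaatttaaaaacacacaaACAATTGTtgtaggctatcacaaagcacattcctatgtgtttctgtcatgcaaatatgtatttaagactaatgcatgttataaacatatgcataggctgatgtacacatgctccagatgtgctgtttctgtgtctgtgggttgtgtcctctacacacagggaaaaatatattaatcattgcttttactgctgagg

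The 5 epithelial members held 3, 2, 4, 1 and 2 GC boxes in the order shown and 0 SOX cores in these stretches, whereas Col3a1 held 2 SOX cores, which overlap, and 0 GC boxes. Promoter windows were found for 39 of the 53 genes, 43 windows in all. Of these 43 windows 23 held a GC box and 2 held a SOX core, where 32.7% and 27.7% of all 32851 windows of 250 bases did. A match of letters is a description and not a bound site.

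The first comparison asked how these genes differ between trunk cells and the endocrine progenitors that arise from them. Of 36 members with enough UMIs for the test, 3 passed between Neurog3 and Spp1 cells, 2 lower and 1 higher. Among all 11477 genes tested, 6.33% passed, 2.79% lower and 3.55% higher, so the members' share is not far from that of all genes. Lamc1, the gamma chain of most laminins, fell from 521 and 611 CPM in Spp1 cells to 207 and 206 in Neurog3 cells, a log2 fold change of -1.44 ± 0.24 (SE, 2 libraries; edgeR quasi-likelihood, Benjamini-Hochberg adjusted p = 2.11e-06). Both Neurog3 values lay below both Spp1 values. Col27a1, a minor fibrillar collagen best known from cartilage, fell from 275 and 337 to 134 and 141 (-1.15 ± 0.28; edgeR adjusted p = 0.00213).

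Col11a2 was the exception, rising from 63.9 and 41.3 in Spp1 cells to 139 and 113 in Neurog3 cells (log2 fold change 1.29 ± 0.37; edgeR adjusted p = 0.0147). It encodes a chain of collagen XI, which sets the width of cartilage fibrils. Both libraries showed the rise, which did not pass with DESeq2 (adjusted p = 0.0695) or in cells thinned to equal depth (edgeR adjusted p = 0.14), the adjusted p going down to 0.00335 over the other alternatives. Col18a1 and Lamb1, which changed strongly at the next step, did not pass here, with log2 differences of -0.72 ± 0.26 (edgeR adjusted p = 0.0769) and -0.60 ± 0.26 (edgeR adjusted p = 0.179). Over the 36 members the median log2 fold change was -0.30, against -0.02 over all genes tested.

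Between Neurog3 and Chgb cells, the step at which progenitors become endocrine cells, 9 of 36 members were lower and 0 higher. Among all genes tested 8.43% passed, 4.96% lower. The largest falls were in a basement membrane collagen and a cartilage collagen. Col18a1 encodes collagen XVIII, a heparan sulfate proteoglycan of basement membranes and the source of endostatin. It fell from 187 and 265 CPM to 18.9 and 27.6, a log2 fold change of -3.31 ± 0.38 (edgeR adjusted p = 2.92e-13). Col2a1, the main fibrillar collagen of cartilage and a known SOX9 target, went from 129 and 53.7 to 6.31 and 9.21 (-3.40 ± 0.57; edgeR adjusted p = 1.19e-06). The 2 Neurog3 values of Col2a1 differed more between libraries than those of Col18a1, and both stood above the Chgb values.

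Laminin chains fell at the same step. Lamb1, the beta chain of laminin-111 and laminin-511, fell from 229 and 215 to 69.4 and 48.4 (-2.0 ± 0.32; edgeR adjusted p = 3.53e-07). Lama5, the alpha chain of laminin-511, had 126 and 120 in Neurog3 cells and 41.0 and 55.3 in Chgb cells (-1.41 ± 0.37; edgeR adjusted p = 0.00448). Lamc1 fell further, to 126 and 80.6 (-1.08 ± 0.29; edgeR adjusted p = 0.00516). These 3 chains make up a single laminin trimer, and all 3 were lower in Chgb than in Neurog3 cells in both libraries. The remaining calls were Col11a2 (-2.34), Col4a5 (-1.76), Col9a3 (-1.56) and Col27a1 (-1.42). Col9a3, whose exons overlap those of Tcfl5 on the other strand, fell less in library 1 (-0.59) than in library 2 (-2.14).

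**Figure D2:**
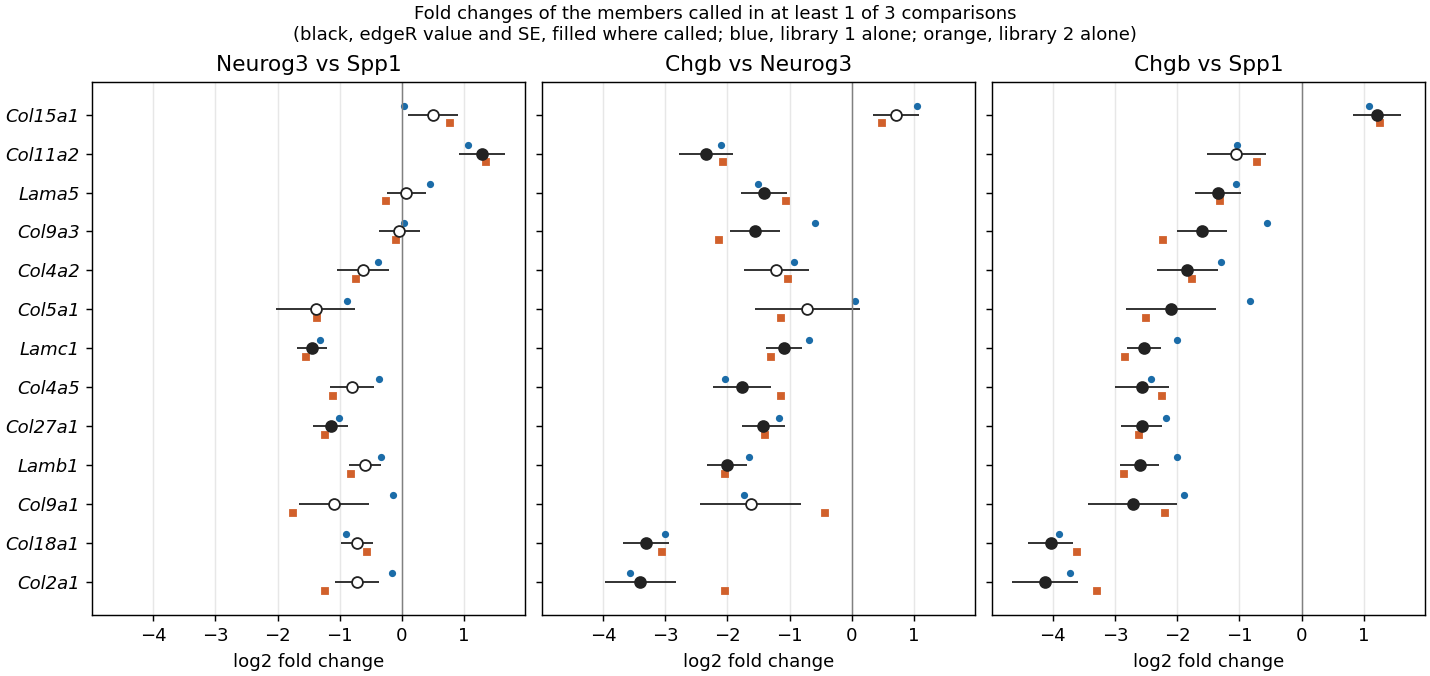
Log2 fold change (horizontal axis) of the 13 members called in at least 1 of 3 comparisons, with the edgeR value and its SE in black (filled where called) and the values of single libraries in blue (library 1) and orange (library 2). Lamc1 and Col27a1 were called lower in all 3 comparisons, Col18a1 and Col2a1 had log2 fold changes of -3.31 and -3.40 between Neurog3 and Chgb cells, and Col15a1 was the member called higher in Chgb than in Spp1 cells.

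Set directly against trunk cells, Chgb cells had 11 of 36 members lower and 1 higher, beside 14.9% of all genes tested, 8.27% lower and 6.62% higher. The median over the members was -0.59, against 0.00 over all genes. Col2a1 (-4.12 ± 0.54) and Col18a1 (-4.03 ± 0.36) had the largest falls, with edgeR adjusted p = 1.04e-10 and adjusted p = 1.18e-19. Lamb1, Col27a1, Col4a5 and Lamc1 fell by 2.60, 2.57, 2.56 and 2.53 on the log2 scale. Col9a1, Col5a1, Col4a2, Col9a3 and Lama5 also passed, between -2.72 and -1.34, of which Col9a1 rested on levels of 36.9 and 49.5 CPM in Spp1 cells and Col5a1 did not pass without the library term (edgeR adjusted p = 0.058). The comparisons among Spp1, Neurog3 and Chgb cells share their groups, so their values are not independent of each other.

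Col15a1 ran the other way. It encodes collagen XV, the closest relative of collagen XVIII in basement membranes. Its level was 46.7 and 34.7 CPM in Spp1 cells, 47.9 and 63.0 in Neurog3 cells and 104 and 89.8 in Chgb cells (Chgb against Spp1, 1.21 ± 0.39; edgeR adjusted p = 0.0188). Both Chgb values lay above all 4 values of the other groups. The call was lost under 4 alternatives, with adjusted p between 0.0543 and 0.109, and its direction was the same in each. Exons of Col15a1 overlap those of Gm12426 on the other strand, and whether counting used strand is not stated in the sources used here.

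Chains of a collagen did not all change alike. Col4a1, a chain of the main type IV collagen, had 93.4 and 135 CPM in Spp1 cells, 75.6 and 88.9 in Neurog3 cells and 97.8 and 117 in Chgb cells (Chgb against Spp1, -0.16 ± 0.32; edgeR adjusted p = 0.83), and passed in none of the 3 comparisons of these groups. Its partner Col4a2, which is transcribed in the opposite direction from a start site 21 bases away on chromosome 8, had 54.1 and 74.3 in Spp1 cells and 18.9 and 18.4 in Chgb cells (-1.84 ± 0.49; edgeR adjusted p = 0.0035). The exons of the pair overlap, so reads near the shared start cannot be assigned without strand. Col9a2, a chain of the fibril-associated collagen IX, likewise stayed within 111 to 252 in the 3 groups (Chgb against Spp1, 0.07 ± 0.28; edgeR adjusted p = 0.918), although its partner chains Col9a1 and Col9a3 fell.

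**Figure D3:**
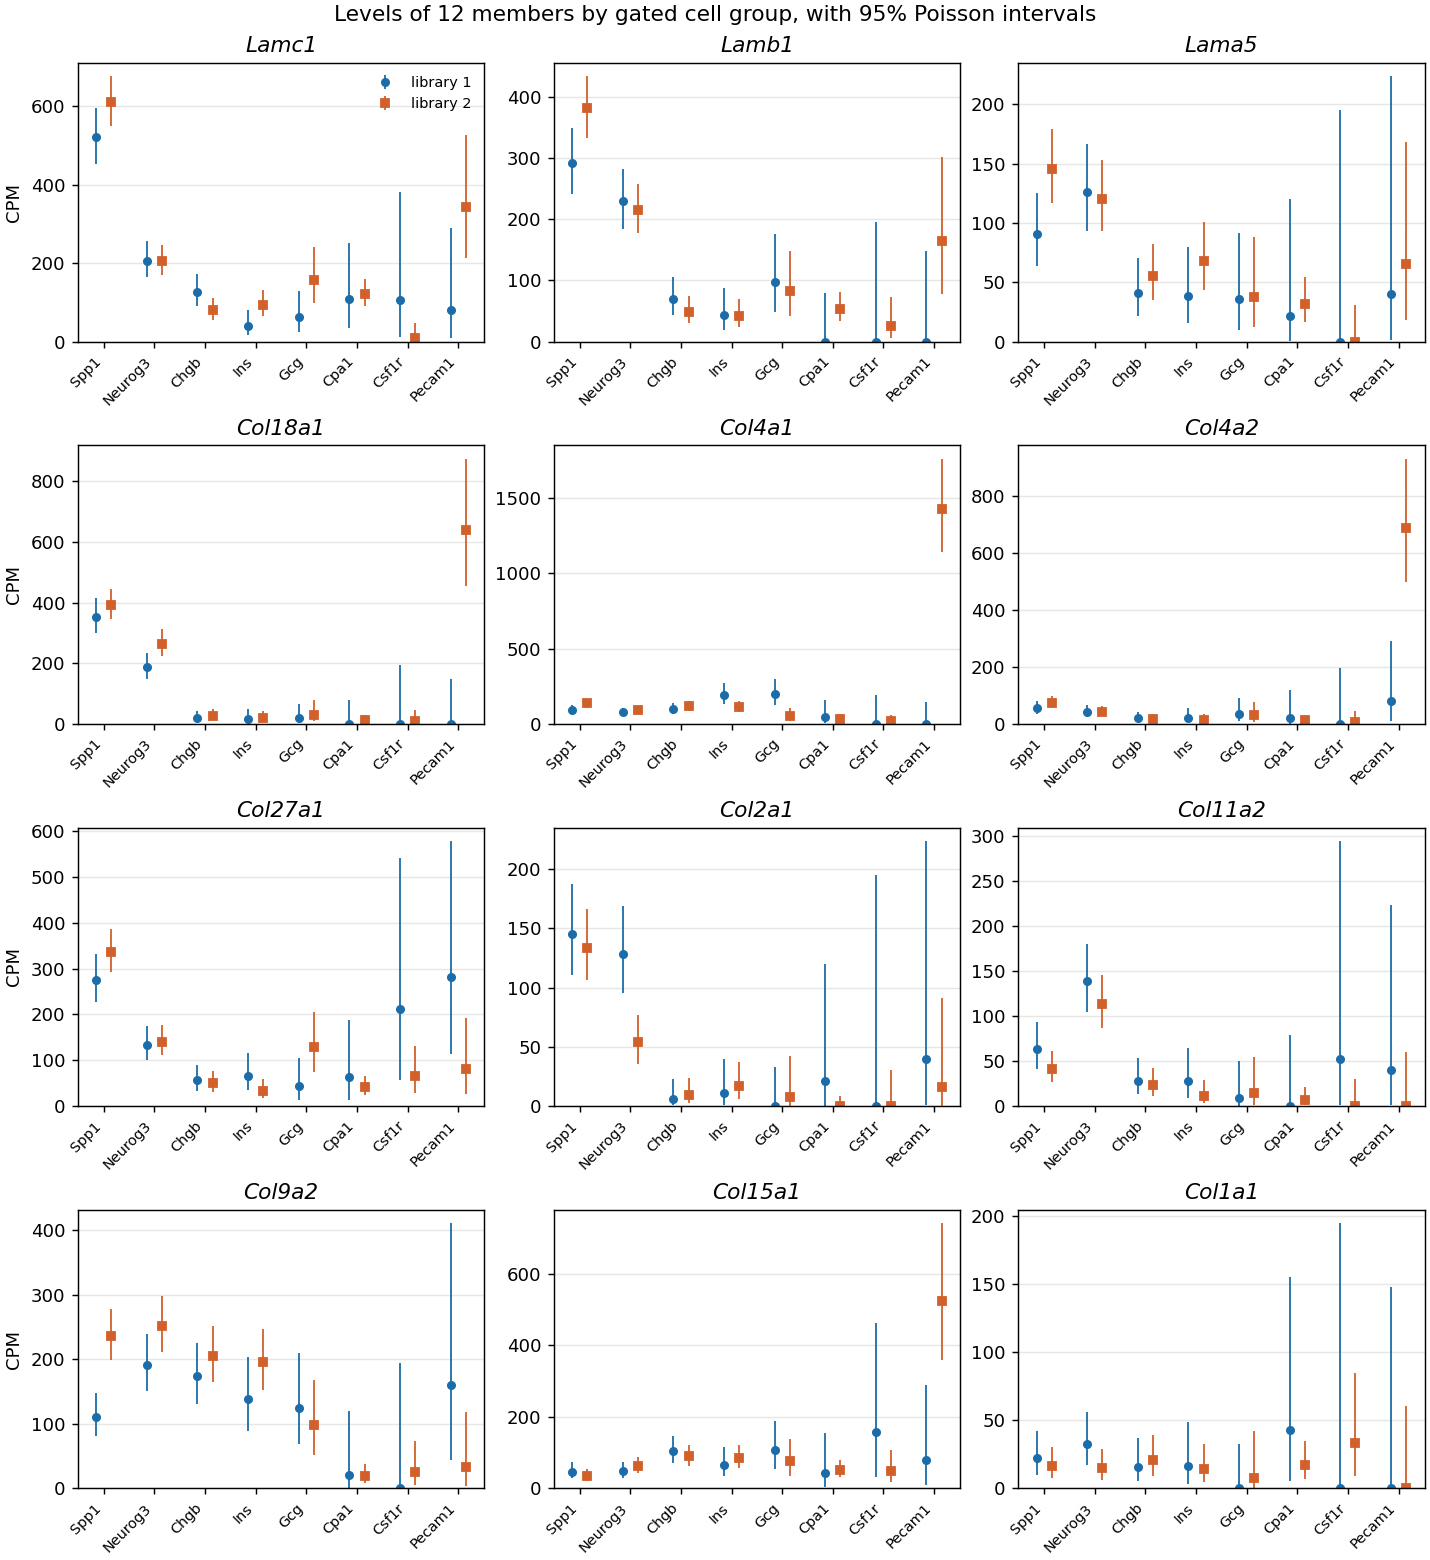
Levels of 12 members in CPM, 1 panel per gene, in the 8 gated groups, with a point per library and its 95% Poisson interval. Lamc1, Lamb1 and Col18a1 were highest among epithelial groups in Spp1 cells and low in Chgb, Ins and Gcg cells, Col11a2 peaked in Neurog3 cells, and Col4a1, Col4a2, Col18a1 and Col15a1 stood out in the Pecam1 cells of library 2.

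Detection per cell followed the summed levels. In Spp1 cells, 70 of 106 and 151 of 211 had a Lamc1 UMI (66.0% and 71.6%), against 40 of 115 and 58 of 183 Neurog3 cells (34.8% and 31.7%) and 23 of 89 and 24 of 136 Chgb cells (25.8% and 17.6%). When each cell was thinned to 2000 UMIs the shares in Spp1 cells were 53.7% and 65.2%, those in Neurog3 cells 28.3% and 25.4%, and those in Chgb cells 16.5% and 13.2%. In the Csf1r cells, which served as the background for free RNA, 2 of 7 and 1 of 38 cells had a Lamc1 UMI, at median depths of 2724 and 2990 UMIs against 3697 and 2675 in Spp1 cells. For Col18a1, 60.4% and 54.5% of Spp1 cells had a UMI, against 6.74% and 8.82% of Chgb cells, and 1 of 38 Csf1r cells of library 2. The highest count in a single Chgb cell was 1, and in a single Spp1 cell 7 and 11.

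Cells that passed 2 gates at once gave a finer view, in a split chosen after seeing the data and described without a test. Cells with Spp1 and Neurog3 together (31 and 67) kept Col18a1 at 319 and 404 CPM, close to the 354 and 393 of cells with Spp1 only. Cells with Neurog3 only (84 and 116) had 116 and 165, and cells with Chgb but not Neurog3 (81 and 123) had 21 and 23.0. Lamb1 showed the same order, at 420 and 351 in the double-positive cells and 128 and 117 in cells with Neurog3 only. Lamc1 was already lower in the double-positive cells, at 319 and 356, than in cells with Spp1 only. Sox9, the trunk transcription factor, went from 786 and 1062 to 565 and 578, then to 128 and 203, and then to 87.7 and 138.

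Col27a1 separated most sharply on Spp1. It stood at 261 and 267 CPM in double-positive cells and at 65.8 and 50.8 in cells with Neurog3 only, near the 52.6 and 48.5 of cells with Chgb but not Neurog3. Col11a2 was highest in cells with Neurog3 only in library 1 (166) and in double-positive cells in library 2 (133), and had dropped to 28.1 and 12.8 in cells with Chgb but not Neurog3. The cells with both Neurog3 and Chgb numbered only 8 and 13, and their intervals span most of the range of the other cells.

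**Figure D4:**
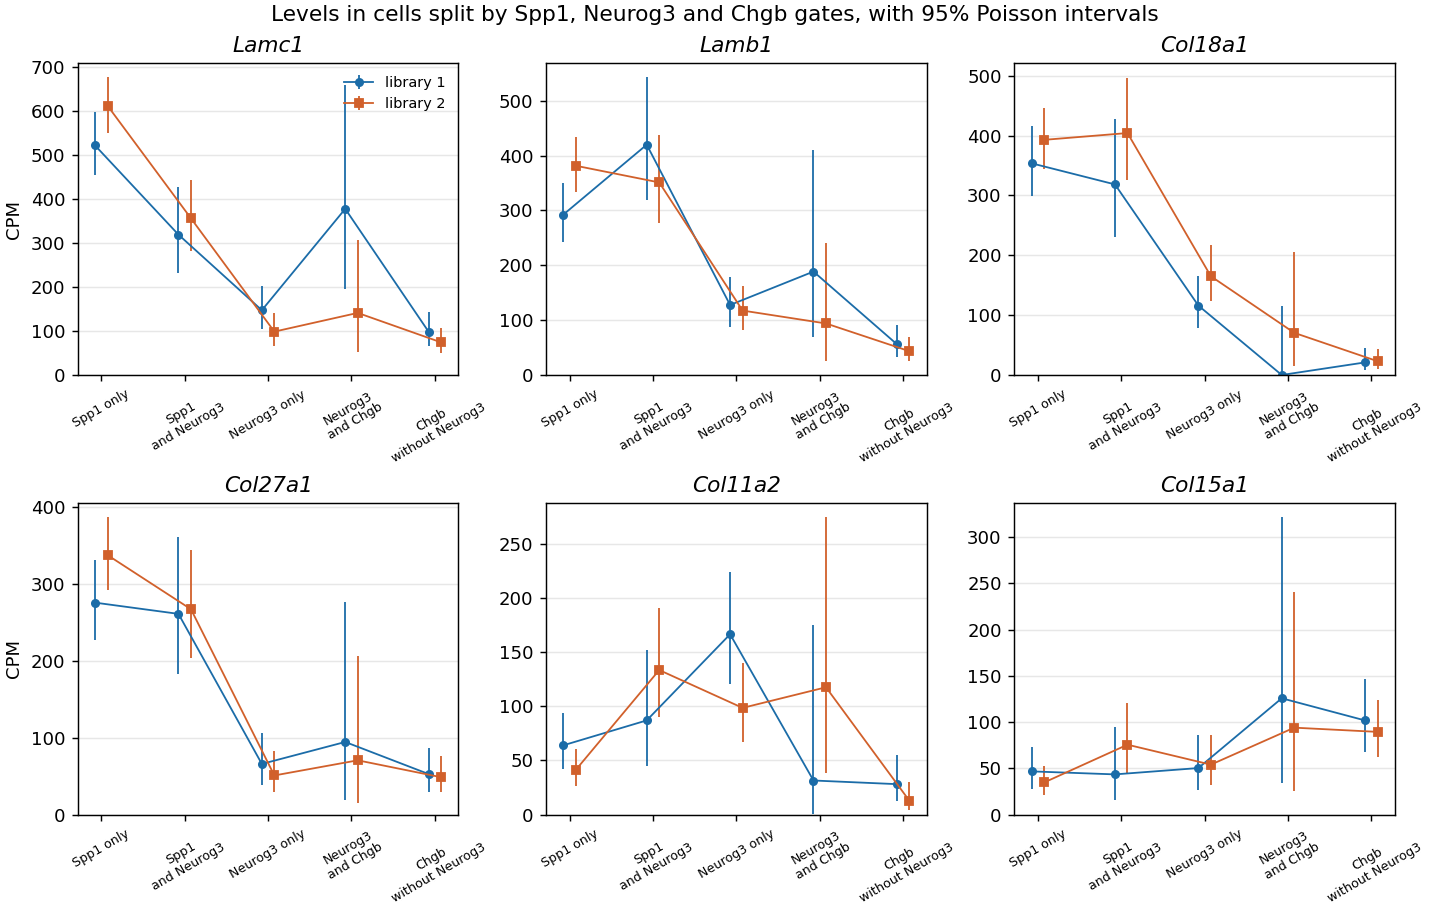
Levels in CPM, with 95% Poisson intervals, of 6 members in cells split by the Spp1, Neurog3 and Chgb gates, with 1 line per library. Col18a1, Lamb1 and Col27a1 kept their level in cells with both Spp1 and Neurog3 and were lower in cells with Neurog3 only, whereas Col15a1 was highest on the Chgb side.

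Among endocrine cells no member passed the test, which does not show equal levels. For Neurog3 against Spp1 cells, the test recovered only 13% of 2-fold changes in simulated data. Between Ins and Chgb cells, Gcg and Chgb cells, and Ins and Gcg cells, edgeR called 0 of 36 members each, beside 2.08%, 0.95% and 2.35% of all genes, and DESeq2 also called 0, with its adjusted p missing for 0, 27 and 22 members. At an unadjusted p under 0.05 edgeR gave 2, 2 and 3 members. In the comparisons with Chgb cells, the smallest edgeR adjusted p were 0.137 for Col5a2 in Ins cells (99.6 and 42.5 CPM against 28.4 and 20.7) and 0.245 for Col1a2 in Gcg cells (62.5 and 121 against 47.3 and 25.3). Col5a2 passed between Ins and Chgb cells when only these 2 groups were fitted. Col18a1 stayed at 16.6 to 30.1 CPM in Ins and Gcg cells. Col4a1 had 194 and 110 in Ins cells, where 60.0% and 32.3% of cells had a UMI, against 0 of 7 and 2 of 38 Csf1r cells.

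Acinar and tip cells, gated by Cpa1, had 14 of 36 members lower than trunk cells and 0 higher, beside 8.41% of all genes tested, 3.87% lower. DESeq2 called 8 of these, all lower. Col18a1 had 0 and 12.2 CPM in Cpa1 cells (-5.00 ± 0.50; edgeR adjusted p = 4.8e-16). Lamb1 had 0 and 53.6 (-2.67 ± 0.38) and Lamc1 had 108 and 122 (-2.13 ± 0.31), with edgeR adjusted p = 5.42e-09 and adjusted p = 9.92e-09. Unlike in Chgb cells, Col9a2 was also lower, at 21.5 and 19.5 (-3.04 ± 0.48; edgeR adjusted p = 1.5e-07). Col9a1 had 0 UMIs in the Cpa1 cells of both libraries, so that it was at least 6.77-fold lower, taking 3 counts over the group as the floor. In library 1 alone that floor was 64.6 CPM, above the 36.9 of Spp1 cells, so library 1 by itself cannot show the fall. The other calls were Col27a1, Col2a1, Col9a3, Lama5, Col4a5, Col11a2, Col4a2, Col4a1 and Col4a6. Library 1 had only 8 Cpa1 cells, with 46460 UMIs. Cpa1 cells were also deeper, with medians of 5630 and 4387 UMIs per cell against 3697 and 2675 in Spp1 cells, and the part of depth in these differences was not tested.

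Macrophages and mesenchyme-list cells had too few cells in library 1 for the planned minimum of 8 cells and 20000 UMIs per library. They were compared in a separate fit with a minimum of 4 cells and 15000 UMIs, chosen after seeing the data. In that fit the median log2 fold change over all 11829 genes tested was -0.35 for Csf1r against Spp1 cells and for mesenchyme-list against Spp1 cells, and -0.29 for Csf1r against Cpa1 cells, while with another scaling (RLE size factors) it was -0.15, -0.07 and -0.11. Changes below are to be read against these shifts. The counts of members called were the same with both scalings. Of all genes called between mesenchyme-list and Spp1 cells, 48.3% were higher with the first scaling and 66.8% with the second.

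Csf1r cells were lower than Spp1 cells in 10 of 38 members and higher in 0, beside 7.88% of all genes tested, 3.8% lower. Col2a1 and Lama5 had 0 UMIs in the Csf1r cells of both libraries, at least 6.42-fold and at least 5.73-fold lower by the same floor. In library 1 alone that floor was 159 CPM, above the 145 and 90.9 of these genes in Spp1 cells. Library 1 by itself therefore cannot show either fall. Col18a1 had 0 and 8.31 CPM (-5.77 ± 0.85; edgeR adjusted p = 1.08e-09) and Lamc1 106 and 8.31 (-4.77 ± 0.65; edgeR adjusted p = 2.4e-11). The value of 106 in library 1 rests on 2 UMIs. The other calls were Lamb1, Col9a2, Col4a5, Col27a1, Col4a1 and Col9a3. Against Cpa1 cells, 1 member, Lamc1, was lower in Csf1r cells (-2.60 ± 0.82; edgeR adjusted p = 0.0222), beside 8.45% of all genes tested, 4.43% lower, and the value in library 1 alone was -0.03.

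Mesenchyme-list cells had the highest levels of the chains of collagens I and III. Of 38 members 8 were higher and 5 lower than in Spp1 cells, beside 2.91% of all genes tested, 1.4% higher and 1.5% lower. Col3a1 had 2468 and 5290 CPM in mesenchyme-list cells and 12.3 and 14.9 in Spp1 cells, a log2 fold change of 7.82 ± 0.45 (edgeR adjusted p = 4.45e-64). Col1a1 had 1965 and 6085 against 22.1 and 16.5 (7.43 ± 0.43; edgeR adjusted p = 3.53e-62). Col1a2 had 2468 and 4717 against 36.9 and 26.4 (6.59 ± 0.40; edgeR adjusted p = 8.19e-57). The group includes the cells with endocrine or acinar markers, and without them Col3a1 had 6538 and 6630, Col1a1 5312 and 7626, and Col1a2 6674 and 5912. With all cells library 2 was higher than library 1 for all 3 genes, without them it was lower for Col1a2, and in both cases both libraries stood more than an order of magnitude above every gated group.

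Collagen VI and V chains rose with them. Collagen VI, a beaded filament around cells of connective tissue, is built from the Col6a1, Col6a2 and Col6a3 chains. Col6a1 had 353 and 678 CPM against 4.91 and 11.6 (5.62 ± 0.60; edgeR adjusted p = 7.32e-18), and Col6a2 504 and 1290 against 24.6 and 21.5 (5.19 ± 0.46; edgeR adjusted p = 1.05e-25). Col6a3, at 101 and 52.1 against 12.3 and 9.91, did not pass (2.28 ± 0.97; edgeR adjusted p = 0.231). Col5a1 (3.88 ± 0.49) and Col5a2 (3.76 ± 0.48), chains of the collagen V that nucleates collagen I fibrils, and Col14a1 (3.85 ± 0.63), a collagen on the fibril surface, also rose.

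The 5 members lower in mesenchyme-list cells were the trunk genes Lamc1 (-1.98 ± 0.45), Col18a1 (-2.35 ± 0.54), Col27a1 (-2.35 ± 0.58), Col4a5 (-3.85 ± 1.04) and Col2a1, which had 0 UMIs and was at least 4.45-fold lower. In library 1, 3 UMIs of this group stand for 151 CPM, above the 145 of Col2a1 in Spp1 cells, so library 1 by itself cannot show that fall. With DESeq2 all 8 higher calls passed and 1 of the 5 lower ones did. Col4a1 and Col4a2 had 0 and 182 and 50.4 and 195 CPM and did not pass (edgeR adjusted p = 0.998 and adjusted p = 0.449).

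Single cells showed that most UMIs of Col1a1, Col1a2 and Col3a1 came from few cells, more so in library 2. The fibrillar Col27a1, by contrast, was counted in 130 and 234 cells. At least 3 UMIs of Col1a1, Col1a2 and Col3a1 together were found in 5 of 515 cells of library 1 and 23 of 1070 cells of library 2. Those cells held 54.9% and 86.1% of all UMIs of the 3 genes. Of the mesenchyme-list cells, 2 of 4 in library 1 had 58 and 78 such UMIs, and 15 of 19 in library 2 had 16 to 178 with a median of 64.0. These 17 cells held 45.5% and 84.2% of all UMIs of the 3 genes in their library. The other mesenchyme-list cells had fewer than 3, so the marker list also took in cells with few or no UMIs of the 3 genes. The 17 cells also had basement membrane UMIs, from 1 to 14 with a median of 5 per cell. In library 2 all 15 mesenchyme-list cells with a Col1a1 UMI also had Col1a2 and Col3a1 UMIs. A further cell of library 1, with 22 UMIs, had passed no gate and had 1 UMI of the mesenchyme list.

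**Figure D5:**
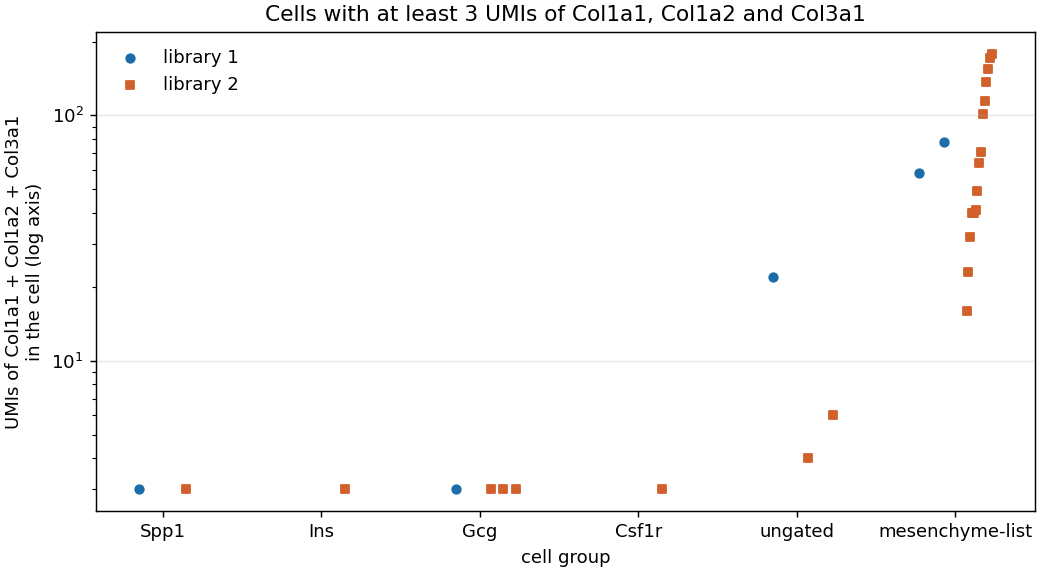
UMIs of Col1a1, Col1a2 and Col3a1 together, on a log axis, in each of the 28 cells with at least 3 such UMIs, by cell group and library. The mesenchyme-list cells ranged from 16 to 178, an ungated cell of library 1 had 22, and the cells of all other groups had 3 to 6.

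Outside these cells the 3 genes were sparse. In Gcg cells, 3 cells of library 2 and 1 of library 1 had exactly 3 UMIs, all of Col1a2 and none of Col1a1 or Col3a1. In Spp1 cells the highest count was 3 in a single cell of each library. Summed mesenchyme markers were at 136 to 223 CPM in the Spp1, Neurog3, Chgb, Ins and Gcg groups. Mesenchyme-list cells had 1209 and 2463, but they were selected on these same markers, so the selection set this difference. When cells with any UMI of the mesenchyme list were left out, only 17 members had enough UMIs for the test. Of them, 7 passed between Chgb and Spp1 cells. The share of all genes tested in that setting is not given here. Fewer members were tested, so 7 of 17 is not to be set against the share in the full set of cells. No member called in the full set of cells changed direction.

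Basement membrane collagens were also high in the 15 Pecam1 cells of library 2, described here without a test. Col4a1 had 87 UMIs, or 1427 CPM (95% Poisson interval 1143 to 1760), in 10 of the 15 cells, and up to 20 in a cell. Col4a2 had 42 UMIs (689 CPM), Col18a1 39 (640 CPM) and Col15a1 32 (525 CPM). Without the 4 cells that passed another gate the levels were 1725, 843, 662 and 622 CPM, and Chgb had 0 UMIs. In Spp1 cells of the same library the levels of these genes were 135, 74.3, 393 and 34.7. Laminin chains in the Pecam1 cells were led by Lamc1 with 21 UMIs, Lamb1 with 10 and Lama4, the alpha chain of vascular laminins, with 7. Col1a1 had 0 UMIs there.

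The members below were low and passed in none of these comparisons. Among laminin chains they were Lama1, Lama2, Lama3, Lama4, Lamb2, Lamb3 and Lamc3, with 33 to 163 UMIs in all. Lamb3, a laminin beta chain of epithelia, had 36.9 and 31.4 CPM in Spp1 cells. Among collagens these were Col4a3, Col4a4, Col7a1, Col11a1, Col5a3 and Col24a1, the fibril-associated Col12a1, Col16a1, Col19a1 and Col20a1, the transmembrane Col13a1, Col17a1 and Col25a1, the short-chain Col8a1, Col8a2 and Col10a1, the type VI chains Col6a3 to Col6a6, and Col26a1 and Col28a1. Of the 53 genes, 17 had too few UMIs for the first fit, which allows no statement on a change in them. Of these, Col6a1, Col6a3 and Lamb2 were tested in the separate fit with the lower minimum, and the others in neither fit.

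Other matrix genes moved in part with the members. Of 15 tested basement membrane partners, such as nidogens and SPARC, 6 were lower and 0 higher in Neurog3 than in Spp1 cells, 5 lower and 1 higher in Chgb than in Neurog3 cells, and 7 lower and 0 higher in Chgb than in Spp1 cells. Among all genes tested, 2.79%, 4.96% and 8.27% were lower in these comparisons. The median of the last was -1.45. The nidogen Nid1 was sparse and showed no fall, at 9.83 and 14.9 CPM in Spp1 cells, 15.1 and 13.0 in Neurog3 cells and 12.6 and 29.9 in Chgb cells. Tinagl1, a matricellular glycoprotein, went from 516 and 776 CPM in Spp1 cells to 171 and 228 in Neurog3 cells and 44.2 and 34.5 in Chgb cells (Chgb against Spp1, -4.10 ± 0.32; edgeR adjusted p = 2.23e-24). Sparc, a collagen-binding glycoprotein, went from 973 and 1113 to 655 and 665 and then to 142 and 106 (-3.14 ± 0.24; edgeR adjusted p = 1.22e-24). Smoc1 fell by 2.47 on the same scale.

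Among 21 tested genes of collagen synthesis, 1 was higher and 3 lower in Chgb than in Spp1 cells, where 14.9% of all genes passed, so the count is not far from that of all genes. Serpinh1, the collagen chaperone HSP47, stayed at 487 and 713 in Neurog3 cells, near the 558 and 685 of Spp1 cells, and fell to 117 and 177 in Chgb cells (Chgb against Neurog3, -2.08 ± 0.25; edgeR adjusted p = 2.4e-12). It was higher in mesenchyme-list cells, at 1008 and 2567 (1.26 ± 0.31 against Spp1 cells; edgeR adjusted p = 0.00393). P4hb, a subunit of collagen prolyl hydroxylase and also a general disulfide isomerase, was higher in Ins than in Chgb cells, at 891 and 900 against 420 and 438 (1.15 ± 0.22; edgeR adjusted p = 6.14e-05). No collagen or laminin member passed in that comparison.

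Of 12 tested receptors of collagen and laminin, 5 were lower and 0 higher in Chgb than in Spp1 cells, beside 8.27% lower and 6.62% higher among all genes. Itga6, a laminin-binding integrin chain, had 246 and 216 CPM in Spp1 cells, 219 and 396 in Neurog3 cells and 56.8 and 120 in Chgb cells (Chgb against Neurog3, -1.84 ± 0.28; edgeR adjusted p = 5.69e-08). In Cpa1 cells Itga6 was higher than in Spp1 cells, at 732 and 855 (1.84 ± 0.26; edgeR adjusted p = 3.08e-09), while the laminin chains Lamb1, Lamc1 and Lama5 were lower there. Dag1, which encodes the laminin receptor dystroglycan, and the syndecan Sdc4 were lower in Chgb than in Spp1 cells, by -1.22 ± 0.29 and -4.28 ± 0.59 (edgeR adjusted p = 0.000804 and adjusted p = 1.19e-09). Itga3, a laminin receptor chain, was higher in Chgb than in Neurog3 cells, at 41.0 and 43.8 against 10.1 and 11.1 (1.89 ± 0.59; edgeR adjusted p = 0.0236). Of the 4 tested genes of matrix degradation, Mmp14, a membrane-bound matrix metalloproteinase, was lower in Chgb than in Spp1 cells, at 22.1 and 29.9 against 68.8 and 71.0 (-1.45 ± 0.45; edgeR adjusted p = 0.0157).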

How the data were processed

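Single cells from 2 wild-type libraries were counted by the authors, who deposited raw UMI counts per gene and cell, aligned to GRCm38 per the submitters' processing notes. Neither aligner, counter, annotation nor strand setting is stated in the sources used here.

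Cells needed 1000 or more UMIs, 500 or more genes and no more than 20% of UMIs from mitochondrial genes, which kept 528 of 535 and 1081 of 1100 barcodes. Scrublet (scanpy 1.11.5) removed 13 and 11 doublets. Counts were summed per library and gated group. The 14 sums of 7 groups, including the ungated cells, entered a quasi-likelihood fit (edgeR 4.0.16 in R 4.3.3; TMM; filterByExpr at its defaults; terms for group and library), which left 6 residual degrees of freedom. Both groups of a comparison come from the same 2 libraries, so library entered as a block. The 9 gate genes were not tested, because they defined the groups. P-values were adjusted over all genes at 0.05, and measure only the spread between these samples, which may be technical. The planned Csf1r and Pecam1 comparisons were not made, for too few cells. Group totals ranged from 18927 to 617806 UMIs. Single-library folds use a pseudocount of 5 CPM. Methods were tested on simulated data. For Neurog3 against Spp1 cells, 13% of the genes changed 2-fold and 92% of those changed 4-fold were recovered. A member that did not pass may therefore still differ.

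Genes were named by rule: members called with the same sign in both libraries or with at least 50 UMIs, a fixed set of main chains, and the 3 partner genes per list and comparison with the lowest adjusted p. Members and lists were chosen with earlier results of these data known. The values of 1 member are not reported here. Positions are from GENCODE M21 and promoters from RefSeq. Exons of 15 members overlap another gene, whose levels are uncertain. Alternatives included DESeq2 1.42.0, other scalings, gates, depth and doublet settings. Python 3.11.15, numpy 2.4.6, pandas 2.3.3, scipy 1.17.1 and matplotlib 3.10.9 were used.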

Additional observations from a re-analysis of the deposited data

How the results depend on the processing

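The 62 called member results gave 521 values under alternatives with a test. Of these, 474 kept direction and call, 45 lost the call with the direction kept, 17 of them with DESeq2, and 2 reversed. Both reversals came with looser gates, in the comparisons chosen after seeing the data: Col4a1 in Csf1r against Spp1 cells (log2 fold change 0.12) and Lamc1 in Csf1r against Cpa1 cells (0.48). The 124 values of single libraries, which have no test, all kept the direction. Counts of members called moved by over 1.5 times in 8 cases. With stricter gates, 5 instead of 3 passed between Neurog3 and Spp1 cells. Without cells that had a mesenchyme-list UMI, 7 instead of 12 passed between Chgb and Spp1 cells, with 17 members tested. When only the 2 groups compared were fitted, 1 member (Col5a2) instead of 0 passed between Ins and Chgb cells, and 9 instead of 14 between Cpa1 and Spp1 cells. With DESeq2, 8 instead of 14 passed between Cpa1 and Spp1 cells, 6 instead of 10 between Csf1r and Spp1 cells and 0 instead of 1 between Csf1r and Cpa1 cells. Between Cpa1 and Spp1 cells its adjusted p was missing for 14 of 36 members, so those members were without a test. With looser gates, 6 passed between Csf1r and Spp1 cells. The cause of these shifts was not tested beyond the smaller number of genes or cells.

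Without the replicate block, that is without the library term, the members called were 3 between Neurog3 and Spp1 cells, 9 between Chgb and Neurog3, 11 between Chgb and Spp1, 0 in each comparison of endocrine groups, 13 between Cpa1 and Spp1, 10 between Csf1r and Spp1, 13 between mesenchyme-list and Spp1, and 1 between Csf1r and Cpa1 cells. Only Col5a1 (Chgb against Spp1) and Col4a6 (Cpa1 against Spp1) lost their call. The share of all genes called without this term is not given here. These counts are therefore set only against the members' own counts with the term.

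Counts over all genes moved more. Between Neurog3 and Spp1 cells 727 genes passed, but 398 with DESeq2, 453 with looser gates and 451 without cells that had a mesenchyme-list UMI. Without those cells 520 instead of 967 passed between Chgb and Neurog3 cells and 994 instead of 1709 between Chgb and Spp1 cells, and with thinned cells 1134 did. Between Cpa1 and Spp1 cells 965 passed, but 597 with DESeq2, 639 with looser gates and 558 when fitted alone. Between Csf1r and Spp1 cells 932 passed, and 591 with looser gates. In the endocrine comparisons the totals ranged from 143 to 373 around 239 (Ins against Chgb), from 53 around 109 (Gcg against Chgb) and from 127 around 270 (Ins against Gcg).

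The Cpa1 comparison could not be made with stricter gates, thinned cells, a minimum of 20 cells or without cells that had a mesenchyme-list UMI. Pecam1 cells reached the minimum only with looser gates, where 5 members passed against Spp1 cells. The number of members tested and the share of all genes called in that setting are not given here. The Pecam1 group was already mixed with the gates used above, so these calls cannot be read as endothelial. Depth limits the 10 members with under 50 UMIs, of which no change can be stated.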
